A study of Mus musculus with 32 samples.

Results

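The genes described here are 9 members of the insulin-like growth factor (IGF) axis: the ligand gene Igf1, the receptor genes Igf1r and Igf2r, and the binding protein genes Igfbp2, Igfbp3, Igfbp4, Igfbp5, Igfbp6 and Igfbp7. They were taken by gene name, and the rule uses no measured value, although earlier results of these data were known when the set was put together. The gene names in the array files match 14 probes to them, of 55681 mouse probes on the array: 5 probes for Igf1, 2 for Igfbp2 and 1 for each other member. All 14 probes were well above background on all 32 arrays. One reading was dropped, that of the brighter Igfbp2 probe on the array of scrambled antimiR mouse 1 in 85% O2 at P14, which the scanner software had marked as an outlier, so that Igfbp2 has 3 values in that group.

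RNA of whole lungs of C57Bl/6J mice of both sexes was measured, with 8 groups of 4 mice and an array for each mouse. The mice were kept in 21% O2 or in 85% O2 from day 1 onward, a model of bronchopulmonary dysplasia, and lungs were taken at postnatal day 5 or 14 (P5 and P14; the labels give 5.5 and 14.5 days). All mice were injected with an oligonucleotide at 10 mg/kg on days 1 and 3: either antimiR-34a, which blocks the microRNA miR-34a, or a scrambled antimiR without a target. No group was left uninjected, so every value below is that of an injected mouse. Each of the 4 slides held mice of a single age and oxygen level, and the antimiRs lay in separate rows of a slide. Oxygen and age can therefore not be told apart from slide, nor antimiR from row.

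IGF-1 is a growth hormone of fetal and early postnatal life that acts through the receptor tyrosine kinase encoded by Igf1r. The receptor encoded by Igf2r has no kinase: it takes up IGF-2 from outside the cell for degradation and sorts lysosomal enzymes. In tissue and blood most IGF is held by binding proteins, which carry it, keep it from its receptor and release it when they are cut by proteases. In the lung, Igf1 is made mainly by mesenchymal cells and macrophages, and the axis takes part in growth of the septa and vessels. Igfbp7 encodes a related secreted protein of vessel walls that binds IGF weakly.

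The microRNA that the antimiR is directed against is shown because the treatment turns on it, with the seed (bases 2 to 8), through which a microRNA finds its targets, in capitals. The sequence is that of RefSeq, at chr4:150068473-150068494 on the + strand of GRCm38.p6.
mmu-miR-34a-5p: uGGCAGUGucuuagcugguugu

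Levels below are log2 brightness minus the 75th percentile of the same array, so that 0 is the brightness at that percentile. A level of another probe cannot be set against it, because probes differ in brightness for the same RNA. Differences are given on this log2 scale with the standard error (SE), and a change is called where limma's p-value, adjusted by Benjamini-Hochberg over all tested probes, was under 0.05. The arrays had between 33616 and 40788 probes well above background, and the 75th percentile before scaling ranged from 9.20 to 10.20 on the log2 scale. Lung markers were bright on all 32 arrays: Sftpc, of alveolar type II cells, lay between 8.23 and 9.66, and Ager, of type I cells, between 3.67 and 5.18. RNA of other tissues was also seen. Scrambled antimiR mouse 4 in 21% O2 at P5 had a mean level of 1.49 over 8 skeletal muscle genes, where the next highest of its group had -1.84. AntimiR-34a mouse 3 in 85% O2 at P5 had 2.23 over 8 liver genes against -2.56 in mouse 4 of its group. That mouse 4 itself stood above mice 1 and 2, which had -4.73 and -5.03. It stayed in the fits below that leave out mice with RNA of another tissue. AntimiR-34a mouse 4 in 85% O2 at P14 had -2.28 over 8 adipocyte genes against -5.66. Scrambled antimiR mouse 1 in 21% O2 at P14 stood above its group for the liver and the adipocyte genes, at -1.30 against -3.74 and at 0.70 against -1.56. The adipocyte gene Adipoq ran from -1.89 to 1.62 in that group and from -2.44 to 2.09 in antimiR-34a mice in 21% O2 at P14. None of those antimiR-34a mice was left out below as having RNA of another tissue.

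**Figure D1:**
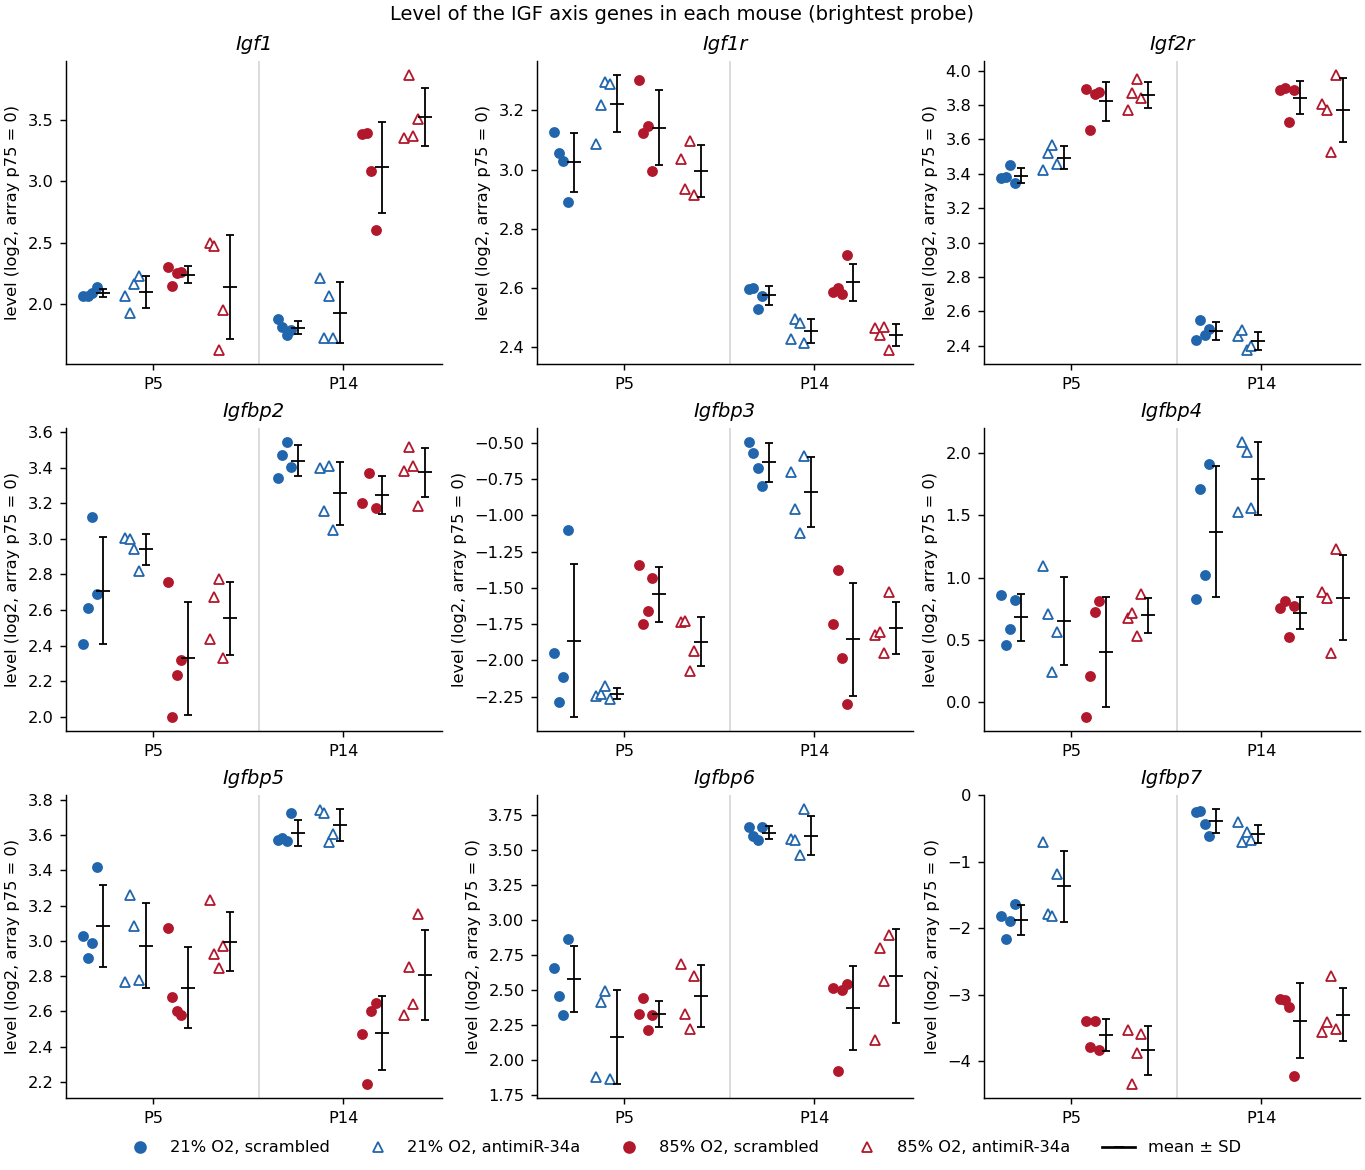
Level of each of the 9 genes in every mouse, on its brightest probe (y axis, log2, with the array's 75th percentile at 0), at P5 and P14; circles are scrambled antimiR, triangles antimiR-34a, blue 21% O2, red 85% O2, and the black bars mean ± SD. At P14 the red and blue points of Igf1, Igf2r, Igfbp3, Igfbp5, Igfbp6 and Igfbp7 lie apart, those of Igf1 and Igf2r with red on top and the others with blue on top.

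The first comparison asked how 85% O2 changed the axis in mice given scrambled antimiR. At P14, 7 of the 9 genes had changed: Igf1 and Igf2r rose, and Igfbp3, Igfbp4, Igfbp5, Igfbp6 and Igfbp7 fell, while Igf1r and Igfbp2 were not called. Among all tested probes 28.2% were called higher and 32.7% lower at this age, so that 2 of 9 members higher is near the background and 5 of 9 lower is above it. Of the called probes 46.3% were higher, and 62.1% with normexp background correction. The median difference of the 9 members was -0.65, beside -0.07 over all 38458 tested probes. In whole-lung RNA, fewer cells that express a gene and less of its RNA per cell cannot be told apart.

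Igf1, the ligand, had levels of 1.88, 1.82, 1.75 and 1.79 in the 4 mice in 21% O2 and of 3.39, 3.39, 3.08 and 2.61 in the 4 mice in 85% O2. Every mouse in 85% O2 was above every mouse in 21% O2 (56.7% of all tested probes did not overlap here), although the 85% O2 mice were spread widely. The rise was 1.31 (SE 0.17), or 2.47-fold, with an adjusted p of 2.19e-05. Igf2r, the uptake receptor, had levels of 2.43, 2.55, 2.46 and 2.50 in 21% O2 and of 3.89, 3.90, 3.70 and 3.89 in 85% O2. The groups lay far apart and varied little, and the rise of 1.36 (SE 0.08; 2.56-fold; adjusted p = 2.78e-08) had the smallest p of the 9 members in this comparison. Igf1r, the signalling receptor, had 2.60, 2.60, 2.53 and 2.57 in 21% O2 and 2.58, 2.60, 2.58 and 2.71 in 85% O2. These groups overlapped, and the 95% interval of the difference ran from -0.07 to 0.16, so that a change of more than 0.16 in either direction lies outside it.

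Igfbp7 showed the widest difference of the 9 members. Its levels were -0.25, -0.23, -0.42 and -0.62 in 21% O2 and -3.07, -3.09, -3.18 and -4.23 in 85% O2, a fall of 8.06-fold (log2 -3.01, SE 0.24, adjusted p = 2.62e-07). Mouse 4 in 85% O2 stood below the other 3 of its group. Igfbp3, which encodes the main IGF carrier of blood, had -0.49, -0.57, -0.68 and -0.80 in 21% O2 against -1.75, -1.38, -1.98 and -2.30 in 85% O2. It fell by 1.22 on the log2 scale (SE 0.17; 2.33-fold; adjusted p = 4.12e-05), and the groups did not overlap.

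Igfbp5, which encodes a binding protein that attaches to extracellular matrix, had 3.57, 3.58, 3.57 and 3.72 in 21% O2 and 2.47, 2.19, 2.61 and 2.65 in 85% O2. Igfbp6, whose protein prefers IGF-2 over IGF-1, had 3.67, 3.60, 3.58 and 3.66 in 21% O2 and 2.52, 1.92, 2.50 and 2.55 in 85% O2. Both were tightly grouped in 21% O2 and fell clear of that range in every mouse in 85% O2. Igfbp5 fell by 1.13 (SE 0.12; adjusted p = 4.04e-06) and Igfbp6 by 1.25 (SE 0.16; adjusted p = 1.77e-05) on the log2 scale. Igfbp4, a carrier cut by the protease PAPP-A, was less settled. Its levels in 21% O2 were 0.83, 1.71, 1.02 and 1.91, and those in 85% O2 were 0.76, 0.81, 0.53 and 0.77, so that the lowest mouse in 21% O2 was just above the highest in 85% O2. The fall of 0.65 (SE 0.24; adjusted p = 0.0275) was not called with mouse 2 or mouse 4 in 21% O2 or mouse 3 in 85% O2 left out (adjusted p = 0.0838, 0.0937 and 0.0690), nor by the methods' t-test (adjusted p = 0.131). Igfbp2, a carrier abundant in fetal life, had 3.34, 3.47, 3.54 and 3.40 in 21% O2 and 3.20, 3.37 and 3.17 in the 3 mice in 85% O2 with a value. The groups overlapped, and the difference was -0.19 (95% interval -0.42 to 0.04). It was called lower with quantile normalization (-0.32, adjusted p = 0.0138) and in the authors' table (-0.72, adjusted p = 0.0340), which keeps the reading marked as an outlier. On the second Igfbp2 probe the difference was -0.11 (adjusted p = 0.414).

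Markers of other cells and tissues moved in the same comparison. Of the 8 adipocyte genes, the 7 tested ones were well above background on all 4 arrays in 21% O2, and 4 of them on none in 85% O2. For 5 of the 7 the test thus rests on the group where they are high. The mean level over the 8 genes lay between -1.65 and 0.70 in 21% O2 and between -6.21 and -5.83 in 85% O2, and the adipocyte gene Adipoq was well above background on 4 of 4 arrays in 21% O2 and on 0 of 4 in 85% O2. Of 8 thymus genes 6 were lower, of 8 heart muscle genes 4, of the 7 tested skeletal muscle genes 4, and of the 5 tested liver genes 4. Of the tested genes, 2 thymus, 1 skeletal muscle and 1 liver gene were well above background on all arrays of only 1 of the 2 groups. Their tests rest on that group. Of 8 tested macrophage genes, 6 were higher and 1 lower, and of 8 fibroblast genes 1 was higher and 5 lower. Endothelial and alveolar epithelial genes, 8 each, had 4 higher and 2 lower, and of 8 smooth muscle genes 3 were higher. The part of these cells in the changes of the IGF genes was not tested. Left out together, the mice with RNA of another tissue did not alter the count: the same number, 7 of 9, was called.

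Of the members called at P14, those with a match to a motif below are shown, 1 gene that rose and 3 that fell. Their 120 bases before the annotated start are given to let the promoters be compared. The sequences are from RefSeq on GRCm38.p6, read in the direction of the gene, and the capitals mark matches to TATAAA (given strand), CCAAT or GGGCGG (either strand). Neighbouring matches can run together.
Igf2r, chr17:12769707-12769826, - strand: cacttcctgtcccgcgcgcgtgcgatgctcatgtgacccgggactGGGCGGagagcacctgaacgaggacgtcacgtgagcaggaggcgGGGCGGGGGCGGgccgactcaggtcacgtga
Igfbp4, chr11:99041124-99041243, + strand: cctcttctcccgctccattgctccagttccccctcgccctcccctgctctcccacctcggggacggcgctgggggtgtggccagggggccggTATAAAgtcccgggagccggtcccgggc
Igfbp6, chr15:102144066-102144185, + strand: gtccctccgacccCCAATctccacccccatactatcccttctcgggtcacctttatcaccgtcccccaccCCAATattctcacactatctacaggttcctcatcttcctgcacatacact
Igfbp7, chr5:77408046-77408165, - strand: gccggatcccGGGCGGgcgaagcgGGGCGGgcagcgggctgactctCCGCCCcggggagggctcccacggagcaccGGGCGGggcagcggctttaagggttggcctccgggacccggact

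These windows hold different letters. The Igf2r window held 3 GGGCGG matches and that of Igfbp7 held 4, on either strand, where 26.5% of the 32851 promoter windows of the same length held at least 1. Igfbp4 had a TATAAA match 28 bases before its start, as 4.19% of windows have one anywhere. Igfbp6 held 2 CCAAT matches, a motif found in 21.3% of windows. The windows of Igf1, Igfbp3 and Igfbp5 held none of these 3 motifs. GGGCGG was also found in the windows of the 2 members that were not called, with 2 matches for Igf1r and 3 for the first start of Igfbp2. All 9 members were found in the promoter table, Igfbp2 with 2 starts.

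At P5, by contrast, 2 of 9 genes were called in mice given scrambled antimiR. Igf2r was higher and Igfbp7 lower in 85% O2, beside 17.4% of all tested probes called higher and 26.5% lower. The higher probes were 39.7% of the called ones, and 52.8% in the authors' table. The median difference of the 9 members was -0.25 and that of all 35984 tested probes -0.07. Igf2r went from 3.38, 3.38, 3.45 and 3.35 in 21% O2 to 3.89, 3.65, 3.86 and 3.87 in 85% O2, a rise of 0.43 (SE 0.06; 1.35-fold; adjusted p = 1.05e-04) without overlap, which held for 39.1% of all tested probes. Igfbp7 went from -1.81, -2.17, -1.89 and -1.64 to -3.40, -3.79, -3.40 and -3.83. All 4 mice in 85% O2 were lower, by 3.31-fold on average (log2 -1.73, SE 0.24, adjusted p = 6.50e-05). Igf1 on its brightest probe was at 2.07, 2.07, 2.10 and 2.14 in 21% O2 and at 2.30, 2.15, 2.26 and 2.26 in 85% O2. Its groups did not overlap, yet the difference of 0.15 was not called by limma (SE 0.15; adjusted p = 0.447), nor by limma on only the groups compared (adjusted p = 0.0850). The methods' t-test called it (adjusted p = 0.0479).

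The other 6 genes were not called at P5. Igfbp2 and Igfbp5 came closest, at -0.38 (adjusted p = 0.0752) and -0.35 (adjusted p = 0.0690), and both were called without mouse 1 in 85% O2 (adjusted p = 0.0126 and 0.0180), which raised the count from 2 to 4. Igfbp2 was also called without mouse 1 in 21% O2 (adjusted p = 0.0386). On the second Igfbp2 probe the difference with all mice was -0.10 (adjusted p = 0.647). Igfbp3 had -1.95, -2.29, -2.12 and -1.10 in 21% O2 and -1.34, -1.75, -1.66 and -1.43 in 85% O2. The high value in 21% O2 is that of mouse 4, the mouse with skeletal muscle RNA. With all mice the difference was 0.32 (adjusted p = 0.199), and without mouse 4 it was 0.57 (adjusted p = 0.00154), a rise, where the difference at P14 was a fall. The part of the muscle RNA in this value was not tested. Of the genes of other tissues, 2 of 5 tested adipocyte genes, 7 of 8 heart muscle genes, 4 of 7 skeletal muscle genes and 0 of 5 liver genes were lower in 85% O2 at P5. Of 8 fibroblast genes 6 were lower and 1 higher, of 8 smooth muscle genes 6 were lower, and of 8 tested macrophage genes 6 were higher. The part of these cells in the P5 values was not tested.

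**Figure D2:**
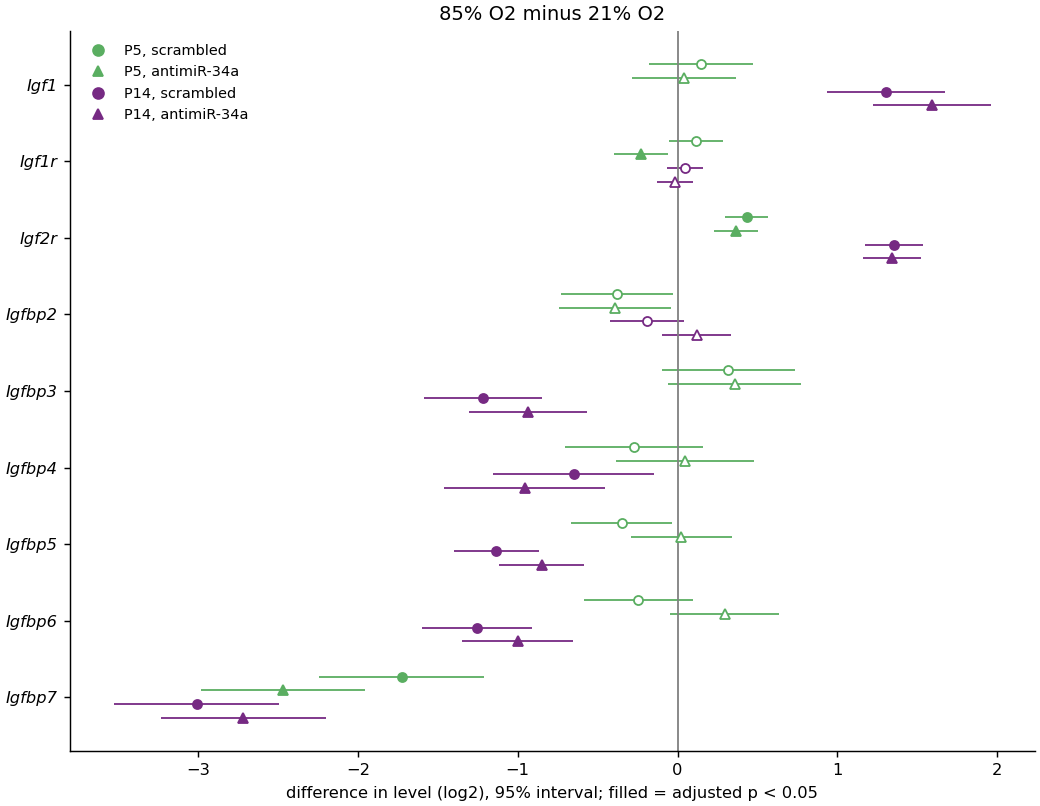
Difference in level between 85% O2 and 21% O2 (x axis, log2) for the 9 genes (y axis), at P5 in green and at P14 in purple, with circles for scrambled antimiR and triangles for antimiR-34a; bars are 95% intervals and filled symbols are called. Igf2r lies to the right and Igfbp7 to the left of 0 in all 4 comparisons, and the purple symbols of Igf1, Igfbp3, Igfbp5 and Igfbp6 lie apart from the green ones.

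The difference between the ages was tested directly, as the oxygen difference at P14 minus that at P5 in scrambled antimiR mice. It was called for 6 of 9 genes, 2 higher and 4 lower, beside 22.8% and 18% of all tested probes. The share of higher among called probes was 55.8%, and 66.7% with normexp. It was 1.16 for Igf1 (SE 0.24; adjusted p = 3.69e-04), 0.92 for Igf2r (SE 0.10; adjusted p = 2.34e-07) and -1.54 for Igfbp3 (SE 0.27; adjusted p = 7.45e-05). The difference between oxygen levels was thus larger at P14 than at P5 for Igf1 and Igf2r, and further down at P14 for Igfbp3. The difference was -0.78 for Igfbp5, -1.01 for Igfbp6 and -1.28 for Igfbp7 (adjusted p = 0.00247, 0.00124 and 0.00518). It was not called for Igf1r, Igfbp2 and Igfbp4, whose 95% intervals ran from -0.25 to 0.11, from -0.24 to 0.61 and from -1.03 to 0.28. In the same test 7 of 7 tested adipocyte genes were lower, in part tested through the group where they are high, as above. Of 8 smooth muscle genes 5 were higher, and of 8 thymus genes 4 were lower and 1 higher. The part of these cells was not tested.

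Mice given antimiR-34a form a second set, with other animals and other controls. At P14 the same 7 genes were called in it as in scrambled antimiR mice, and each in the same direction, beside 27.6% of probes higher and 37.9% lower (42.1% of the called probes higher, and 55.1% with quantile normalization). Igf1 rose by 1.59 (SE 0.17; 3.01-fold), from 2.22, 1.72, 2.06 and 1.73 to 3.35, 3.87, 3.37 and 3.51. Igf2r rose by 1.34 (SE 0.08), from between 2.37 and 2.49 to between 3.53 and 3.97. Neither gene overlapped between the oxygen levels, as 58.9% of all tested probes did not. Igfbp7 fell by 2.72 (SE 0.24; 6.58-fold), from -0.40, -0.70, -0.55 and -0.67 to -3.56, -3.41, -2.71 and -3.52. Igfbp3, Igfbp4, Igfbp5 and Igfbp6 fell by 0.94, 0.96, 0.85 and 1.00 (adjusted p between 4.15e-05 and 0.00265). Mouse 4 in 85% O2, the mouse with adipocyte RNA, had the highest Igfbp4, Igfbp5 and Igfbp6 of its group, at 1.23, 3.15 and 2.90; the part of that RNA was not tested. The 7 genes were also called without it. Markers of other cells moved here too. All 7 tested adipocyte genes were lower, and 5 of them were well above background on all arrays of only 1 of the 2 groups. Of 8 thymus genes 6 were lower and 1 higher, and 3 of the 8 were likewise well above background in only 1 group. Of 8 fibroblast genes 4 were lower and 1 higher, and of 8 tested macrophage genes 6 were higher and 1 lower. Of 8 smooth muscle genes 4 were higher. The part of these cells was not tested.

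At P5 in antimiR-34a mice, Igf2r rose by 0.36 (SE 0.06; adjusted p = 3.67e-04) and Igfbp7 fell by 2.47 (SE 0.24; adjusted p = 2.24e-06), as in the other set. Igf1r was called lower as well, at -0.23 (SE 0.08; adjusted p = 0.0265), which made 3 of 9 genes beside 17.1% of probes higher and 29.5% lower (36.8% of the called probes higher, and 49.0% in the authors' table). Its levels were 3.09, 3.22, 3.30 and 3.29 in 21% O2 and 3.04, 2.93, 3.10 and 2.91 in 85% O2, with an overlap of the groups. The call was lost without mouse 3 or mouse 4 in 21% O2, or mouse 2 or mouse 4 in 85% O2 (adjusted p from 0.0662 to 0.0758). Igfbp3 was not called, although its groups did not overlap, nor did those of 42% of all tested probes. It lay between -2.27 and -2.18 in 21% O2 and between -2.08 and -1.73 in 85% O2. This rise of 0.36 was called by limma on only the groups compared (adjusted p = 0.0126). Without the mice with RNA of another tissue it was called at 0.43 (adjusted p = 0.00516). Without mouse 3 in 85% O2, which carried liver RNA, Igfbp2 was called lower at -0.46 (adjusted p = 0.0414).

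The 5 probes of Igf1 did not give the same size of change. Mm9 positions and transcript bases are those of the array files, which do not say whether a probe lies in coding sequence or UTR. The brightest probe, at chr10:87399581-87399640, starts at base 6909 of its transcript. The probes at bases 889 and 909, at chr10:87393561-87393620 and chr10:87393581-87393640, share 40 of their 60 bases. Those probes rose by 2.23 (SE 0.19) and 2.30 (SE 0.20) at P14 in 85% O2, and the probe at base 3252 by 2.44 (SE 0.14). Its levels were -2.46, -2.45, -2.58 and -2.51 in 21% O2 and -0.21, 0.10, 0.07 and -0.20 in 85% O2, 5.42-fold higher. The probe assigned to another transcript, at chr10:87378456-87378515, rose by 0.90 (SE 0.10), the least of the 5.

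The rise on each of the 4 probes at P14 was set against that of the brightest probe by an exact two-sided permutation test of the difference between probes within a mouse, over all 70 arrangements of 4 against 4 mice; this test was chosen after the values were seen. The rise was greater by 0.92, 0.99 and 1.13 on the probes at bases 889, 909 and 3252, and smaller by 0.40 on the probe of the other transcript. Each of these had an exact permutation p of 0.0286, the smallest that 4 against 4 allows, and 0.0457 after adjustment over the 8 tests made at P5 and P14. At P5 the difference on the probe of the other transcript (-0.15) and that on the brightest probe (0.15), neither of them called by limma, lay 0.29 apart, with the same exact p of 0.0286 and 0.0457 after adjustment. The remaining 3 differed from the brightest by -0.12, -0.04 and 0.23 (exact permutation p from 0.0571 to 0.457). By limma, the probe at base 3252 was called higher at P5 in both sets of mice, by 0.38 (adjusted p = 0.0134) in scrambled antimiR and by 0.40 (adjusted p = 0.00870) in antimiR-34a mice. The direction at P14 was the same on all 5 probes, and the size was not.

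**Figure D3:**
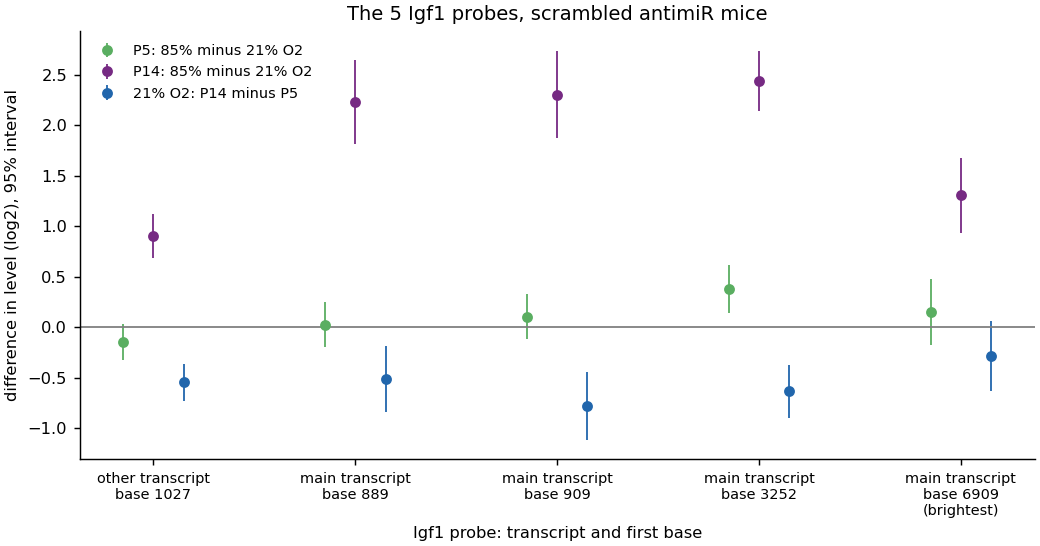
Difference in level (y axis, log2, bars are 95% intervals) on each of the 5 Igf1 probes (x axis, in order along the gene, with the first base of the probe in its transcript), in scrambled antimiR mice; green is 85% minus 21% O2 at P5, purple the same at P14, blue P14 minus P5 in 21% O2. The purple points lie between 0.90 and 2.44, all above the green ones, and all blue points are below 0.

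Growth from P5 to P14 was compared in scrambled antimiR mice in 21% O2. All 6 binding protein genes rose with age, Igf1r and Igf2r fell, and Igf1 was not called on its brightest probe. Over all tested probes 27.7% were called higher and 23.8% lower at P14, against 6 and 2 of these 9 genes. Higher probes were 53.8% of those called, and 44.8% with quantile normalization, where lower ones were more frequent. The median over the members was 0.69, beside 0.04 over 39163 probes. Igfbp7 rose 2.82-fold (log2 1.50, SE 0.25), Igfbp3 2.34-fold (1.23, SE 0.19) and Igfbp6 2.07-fold (1.05, SE 0.16). Igfbp6 had 2.66, 2.46, 2.33 and 2.87 at P5, and the other values of the mice are given above. In none of these 3 genes did the ages overlap, nor in 49.1% of all tested probes. Igfbp2 rose by 0.73 (SE 0.14), from 2.41, 2.61, 3.12 and 2.69, and by 1.02 (SE 0.14) on its second probe, and Igfbp5 rose by 0.53 (SE 0.14). Igfbp4 rose by 0.69 (SE 0.23; adjusted p = 0.0133) with overlapping groups, and this call was lost without mouse 2 or mouse 4 at P14 (adjusted p = 0.0542 and 0.0732), by the methods' t-test (0.128) and by limma on only the groups compared (0.0513).

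Igf2r fell by 0.90 (SE 0.07; 1.87-fold; adjusted p = 2.77e-10) with age and Igf1r by 0.45 (SE 0.06; 1.37-fold; adjusted p = 1.69e-06). Igf1r went from 3.13, 3.06, 3.03 and 2.89 to between 2.53 and 2.60, without overlap. Igf1 differed by -0.28 on its brightest probe (adjusted p = 0.156) and was called lower on the other 4 probes, by 0.51 to 0.78. On the brightest probe the ages did not overlap, and the difference was called by the methods' t-test (adjusted p = 0.00338) and by limma on only the groups compared (adjusted p = 0.00408). In 85% O2 the means of Igf2r in scrambled antimiR mice were 3.82 ± 0.11 (SD, n = 4) at P5 and 3.84 ± 0.10 at P14, where those in 21% O2 were 3.39 ± 0.04 and 2.49 ± 0.05. For Igfbp7 the means in 85% O2 were -3.60 ± 0.24 and -3.39 ± 0.56, and those in 21% O2 were -1.88 ± 0.22 and -0.38 ± 0.18. So the levels of Igf2r and Igfbp7 that moved apart between the ages in 21% O2 were close together in 85% O2, which the test of oxygen by age above covers. The comparison of ages shares the P14 mice in 21% O2 with that of oxygen at P14. Markers of several cell types rose with age as well: 7 of 7 tested adipocyte genes, 7 of 8 endothelial, 6 of 8 alveolar epithelial, 5 of 8 fibroblast, 5 of 8 tested macrophage and 5 of 8 thymus genes. Of the thymus genes 1 was lower, and of 8 smooth muscle genes 1 was higher and 3 lower. Of the adipocyte and of the thymus genes, 2 each were well above background on all arrays of only 1 of the 2 ages, so that their tests rest on that age. The part of these cells in the rise of the binding proteins was not tested.

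The order of the 8 groups differed between members. Igf1 was highest in 85% O2 at P14, at 3.52 ± 0.24 with antimiR-34a and 3.12 ± 0.37 with scrambled antimiR, which overlapped. The other 6 groups followed below a gap and each overlapped its neighbour in the order, down to 1.81 ± 0.05. Igf1r was ordered by age, with the 4 groups of P5 between 2.99 and 3.22 and those of P14 between 2.44 and 2.62. Igf2r had its 4 groups in 85% O2 on top, between 3.77 and 3.86 and overlapping, and the 2 groups at P14 in 21% O2 at the bottom. For Igfbp3, Igfbp5, Igfbp6 and Igfbp7 the 2 groups at P14 in 21% O2 were the highest. They did not overlap the group next in the order of means for Igfbp3, Igfbp5 and Igfbp6, although for Igfbp3 mouse 4 of scrambled antimiR in 21% O2 at P5 (-1.10) was above the lowest mouse of antimiR-34a in 21% O2 at P14 (-1.12). For Igfbp7 they overlapped each other but the lower of them stood just within reach of antimiR-34a mice in 21% O2 at P5. Igfbp4 had no gap between any neighbours in its order, and Igfbp2 had a single gap between neighbours, at 85% O2 at P14 with scrambled antimiR above 21% O2 at P5 with antimiR-34a, although single mice of the ages overlapped.

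The antimiRs were then set against each other within an age and an oxygen level, which asks whether blocking miR-34a changed the axis. No member was called by limma in any of the 4 comparisons. At P14 in 85% O2, where 2.67% of all tested probes were called, 3 members had an unadjusted p under 0.05, as had 16.5% of all probes, and 1 member by the methods' t-test. At P5 in 85% O2, with 0.0639% of probes called and 13.1% under that p, the members' counts were 0 and 1. At P5 in 21% O2, with 0.136% and 17.6%, they were 2 and 2, and at P14 in 21% O2, with 0% and 10.5%, they were 1 and 1. The methods' t-test called no member after adjustment.

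In 85% O2 at P14 they ran from -0.18 to 0.41, and over the 4 comparisons the widest 95% intervals reached -0.78 and 1.02. Igf1 at P14 in 85% O2 differed by 0.41 (95% interval 0.04 to 0.78; adjusted p = 0.246), with overlapping groups. On the probe of the other Igf1 transcript the difference was 0.38 (SE 0.10; adjusted p = 0.0604) and the groups did not overlap. Igf1r was the single member whose groups did not overlap in this comparison, as those of 9.54% of all probes did not: 2.58, 2.60, 2.58 and 2.71 with scrambled antimiR and 2.46, 2.44, 2.47 and 2.39 with antimiR-34a, a difference of -0.18 (SE 0.05; adjusted p = 0.0926). In 21% O2 at P14 Igf1r differed by -0.12 (SE 0.05; adjusted p = 0.474), again without overlap, which held for 5.13% of all probes. At P5 its differences were 0.20 in 21% O2 and -0.15 in 85% O2 (adjusted p = 0.229 and 0.431).

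The difference between these effects in 85% O2 and 21% O2 was not called for any member either, beside 0.0556% of probes at P5 and 0.0884% at P14. At P5, 3 members had an unadjusted p under 0.05 by limma and at P14 0 had, where 10.8% and 15% of all probes had one. They were Igf1r (-0.35, adjusted p = 0.294), Igfbp6 (0.54, adjusted p = 0.406) and Igfbp7 (-0.74, adjusted p = 0.453), named after their values were seen. In antimiR-34a mice in 21% O2 at P5, Igfbp6 was 1.88, 2.42, 2.50 and 1.87, and Igfbp7 was -0.69, -1.79, -1.82 and -1.18. The mean level over 6 mesothelium genes in the same mice was -0.80, 0.31, 0.71 and -0.80. The part of mesothelium RNA in these values was not tested.

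**Figure D4:**
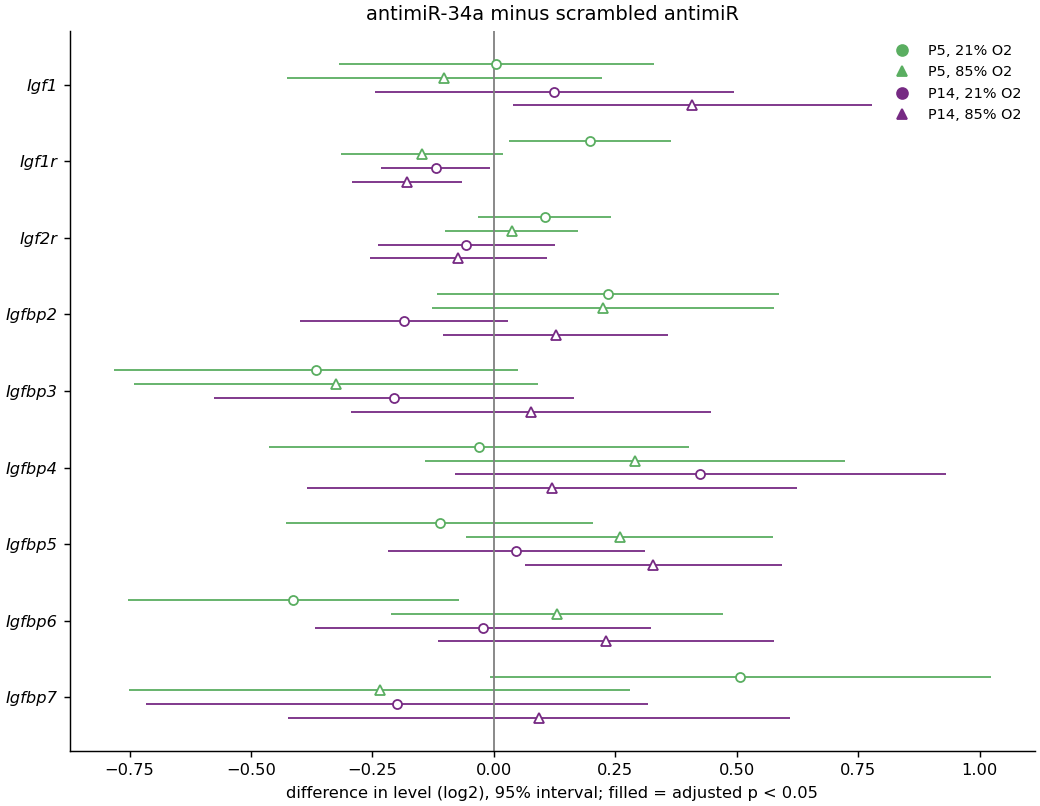
Difference in level between antimiR-34a and scrambled antimiR (x axis, log2) for the 9 genes (y axis), at P5 in green and P14 in purple, with circles for 21% O2 and triangles for 85% O2; bars are 95% intervals. All symbols are open, none being called, and the estimates lie between -0.41 and 0.51.

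Other genes of the pathway were taken from a list of 27, of which 26 had a tested probe at P14 and 25 at P5; Igfbp1 had none. In scrambled antimiR mice 85% O2 raised 10 and lowered 10 of them at P14, and raised 5 and lowered 7 of the 25 at P5. Over all tested probes 28.2% were higher and 32.7% lower at P14, and 17.4% and 26.5% at P5, so that the P5 counts lie near that share. With 1 array left out at a time, 8 to 10 genes were lower at P14 and 4 to 6 at P5, the 4 without mouse 1 or without mouse 3 in 85% O2. Their median difference was -0.01 at P14 and 0.03 at P5. Among regulators of the binding proteins, Stc2, which encodes an inhibitor of the PAPP-A proteases, rose 3.66-fold at P14 (log2 1.87, SE 0.10). It was between -3.55 and -3.49 in 21% O2 and between -1.84 and -1.52 in 85% O2, without overlap, and it was also higher at P5, by 0.62 (SE 0.17). Pappa, which encodes the protease PAPP-A, was lower at P14 by 1.33 (SE 0.46; adjusted p = 0.0226), a call lost without mouse 4 in 21% O2 or mouse 4 in 85% O2 (adjusted p = 0.0778 and 0.0546). Pappa2, which encodes its relative PAPP-A2, was higher by 1.03 (SE 0.15) at P14 and lower by 0.42 (SE 0.12) at P5. Htra1, which encodes a serine protease that cuts IGF binding proteins, was lower by 0.27 (SE 0.09) at P5 and by 0.36 (SE 0.13) at P14. These calls were lost without mouse 2 in 21% O2 at P5 (adjusted p = 0.0525), and at P14 without mouse 2 in 21% O2 or mouse 3 or 4 in 85% O2 (adjusted p from 0.0543 to 0.0681). Igfals, which encodes the subunit that joins IGF and Igfbp3 protein in blood, was higher by 0.87 (SE 0.18) at P5 and by 0.99 (SE 0.15) at P14.

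Of the genes that act below the receptor, the insulin receptor substrates moved in opposite directions at P14: Irs2 rose 3.06-fold (log2 1.61, SE 0.19) and Irs1 fell 2.56-fold (log2 -1.35, SE 0.12). Irs1 was also lower at P5, by 0.34 (SE 0.09). Pik3ca, the catalytic subunit of a phosphoinositide kinase, was lower at P14 by 1.05 (SE 0.11) and at P5 by 0.25 (SE 0.09), and the P5 call was lost without mouse 1 or 3 in 21% O2 or mouse 1, 2 or 3 in 85% O2 (adjusted p from 0.0510 to 0.104). Grb10, an adaptor that restrains the receptors, moved in opposite directions: it was lower at P5 by 0.50 (SE 0.13) and higher at P14 by 0.87 (SE 0.11), and the difference between the ages was called (1.37, SE 0.17, adjusted p = 9.20e-07). Its P14 levels were between 0.42 and 0.66 in 21% O2 and between 1.19 and 1.64 in 85% O2, without overlap, whereas the P5 groups overlapped. Foxo3, a transcription factor held back by the pathway, was higher at P5 by 0.57 (SE 0.14), and its difference at P14 was 0.34 (SE 0.32; adjusted p = 0.386). The RNA-binding protein genes Igf2bp3, higher by 0.37 (SE 0.08) at P5 and by 0.96 (SE 0.15) at P14, and Igf2bp1, higher by 1.14 (SE 0.11) at P14, were the remaining ones among the 4 widest rises of an age. Igfbpl1, a relative of Igfbp7, was well above background on all 4 arrays in 21% O2 at P14 and not well above background on any in 85% O2, and was at least 7.01-fold higher in 21% O2 (adjusted p = 2.34e-06). It was tested through the group where it is high, and the p comes from measured values that include background. Igf2, the other ligand, was not called at either age. Its differences were -0.80 at P5 (adjusted p = 0.0719) and 0.05 at P14 (adjusted p = 0.856). The P5 levels in 21% O2 were -1.93, -2.48, -2.30 and -0.26, the last that of the mouse with skeletal muscle RNA, and those in 85% O2 were -2.33, -2.57, -2.65 and -2.61. Without that mouse the difference was -0.30 (adjusted p = 0.0746), and without mouse 2 or mouse 3 in 21% O2 it was called, at -1.04 and -0.98 (adjusted p = 0.0265 and 0.0435). The part of the muscle RNA was not tested.

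For antimiR-34a, 1 of the 26 genes was called, Irs1 at P14 in 85% O2, where 2.67% of all probes were called. Its level was 1.30 ± 0.21 with scrambled antimiR and 1.78 ± 0.25 with antimiR-34a, a difference of 0.48 (SE 0.12; adjusted p = 0.0480). In 21% O2 the levels of Irs1 were 2.65 ± 0.06 and 2.69 ± 0.06. In 85% O2 the groups overlapped, with 1.38, 1.13, 1.12 and 1.56 against 1.80, 1.42, 1.91 and 1.99. The call was lost in 6 of the 8 fits that left out 1 mouse (adjusted p from 0.0660 to 0.130), which were those without antimiR-34a mouse 1, 3 or 4 or scrambled antimiR mouse 1, 2 or 3. AntimiR-34a mouse 4, with the highest Irs1, is the mouse with adipocyte RNA. Without the mice with RNA of another tissue the difference was 0.41 (adjusted p = 0.171). The part of that RNA was not tested. Without antimiR-34a mouse 2, Irs2 was called lower, at -0.84 (adjusted p = 0.00133), where it was -0.59 with all mice (adjusted p = 0.127).

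**Figure D5:**
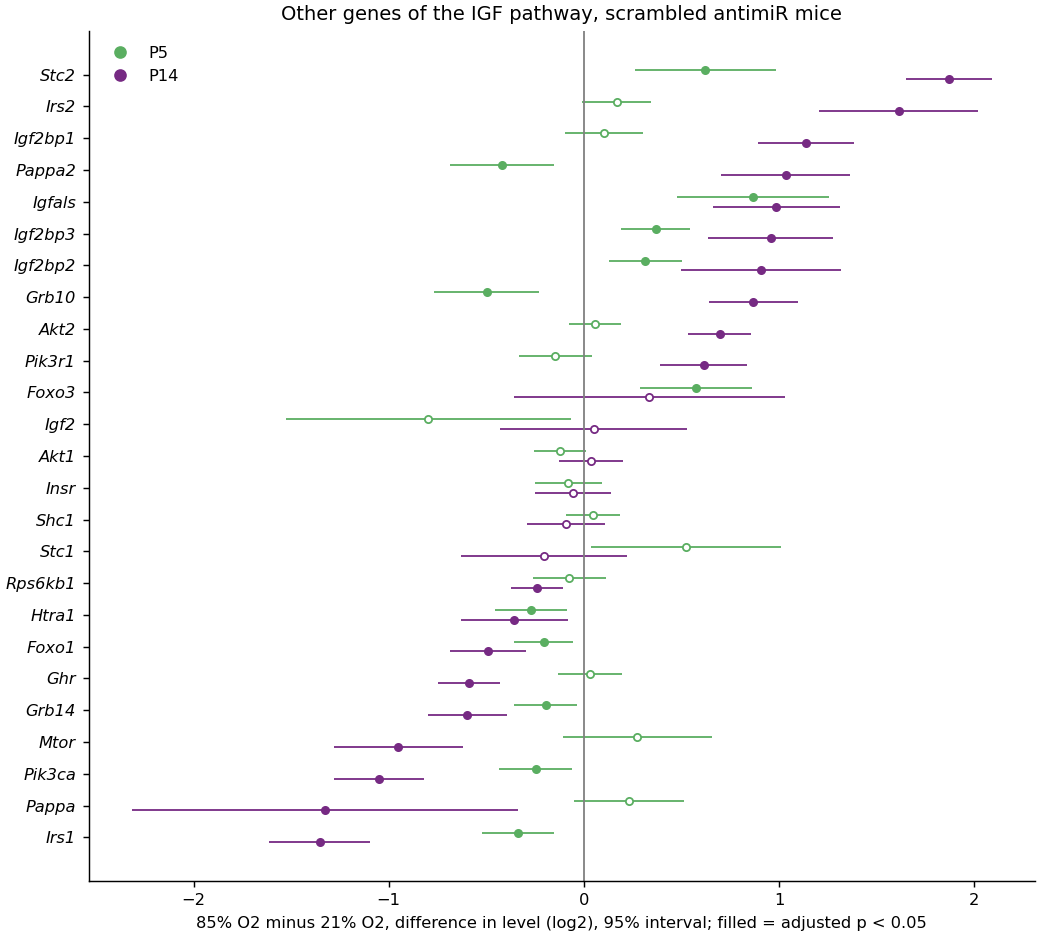
Difference in level between 85% O2 and 21% O2 (x axis, log2) in scrambled antimiR mice for 25 other genes of the pathway (y axis, ordered by the difference at P14; Igfbpl1, which has only a bound, is left out), at P5 in green and P14 in purple; bars are 95% intervals and filled symbols are called. Stc2 and Irs2 are farthest to the right at P14, and Irs1 and Pappa farthest to the left.

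Genes with a similar course over the 32 arrays were looked up for each member by Pearson's r, as a description. The mice of a group share age, oxygen and slide, so that r mostly follows the group means. Igf2r was matched most closely by Siva1 (r = 0.977) and Shisa6 (r = 0.975), and Igfbp7 by P2ry14 (r = 0.968) and a probe named Nfkb1 (r = 0.954). Igf1 went with Col18a1 (r = 0.947) and Svep1 (r = 0.945), and Igf1r with Gpatch8 (r = 0.947) and Copg2os2 (r = 0.943). Those were the members with the closest matches. Igfbp2 went with Bmp5 (r = 0.918) and Slc4a9 (r = 0.908), Igfbp3 with Zfp467 (r = 0.915) and Cwc25 (r = 0.909), and Igfbp6 with Ppap2b (r = 0.913) and Ces2g (r = 0.910). Igfbp5 went with Slc25a42 and Cr2 (r = 0.903 for both), and Igfbp4 with Vmn1r131 (r = 0.876) and Gm10871 (r = 0.874). Among the members, Igfbp5 and Igfbp6 were closest to each other (r = 0.864), and they also deviated together within groups (r = 0.768 after the group means were taken off). Igf2r and Igfbp7 ran opposite to each other (r = -0.901), and within groups r was -0.417.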

How the data were processed

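Per the file headers, the deposited array files hold intensities of 62976 spots, as Agilent Feature Extraction 10.7.3.1 wrote them, with the processed intensity corrected for background within an array and not scaled between arrays. The authors' table holds log2 values that are equally distributed on all arrays. Probe positions are mm9. The methods name a peqGOLD and the labels a miRNeasy kit.

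Here log2 processed intensity was used after subtraction of each array's 75th percentile. Control spots and outlier-marked spots were left out, and spots of a probe averaged. A probe was tested where some group had it well above background in all its mice. Tests used limma 3.58.1 (R 4.3.3), all groups of an age (or of both ages) in 1 fit, with Benjamini-Hochberg adjustment at 0.05. The fit was tested on simulated data. A gene was read on its brightest tested probe. Named pathway genes were the 4 widest called rises and falls for oxygen at each age and any called for antimiR-34a. The members, lists and comparisons were chosen with earlier results of these data known. The number of mice limits the precision, and p-values measure the spread between mice of a group, which shared a slide. Groups and replicate numbers came from the sample titles. Most same-numbered arrays did not deviate together, so no pairing was used. Between groups of an age r was above 0.1 in 4 of 24 pairs at P5 and 6 of 24 at P14. The widest values were between the antimiRs in 21% O2 at P14: 0.42 and 0.50 for mice 1 and 4, and -0.35 for mouse 3. The alternatives were normexp (offset 50), quantile normalization, the authors' table, other filters, a mean over probes, a 2-fold threshold, the methods' t-test, a replicate block and arrays left out. Leaving out arrays with RNA of another tissue, and any array for the pathway genes, was chosen after the data were seen.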

Additional observations from a re-analysis of the deposited data

Results flagged for a closer look

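Single mice stood apart from the other 3 of their group, by Dixon's test at 95%, in 7 of 71 groups of 4 values, and chance alone marks about 1 in 20. In 85% O2 at P14 with scrambled antimiR they were Igf1r in mouse 4 (2.71), Igf2r in mouse 3 (3.70), Igfbp6 in mouse 2 (1.92) and Igfbp7 in mouse 4 (-4.23). The others were Igfbp7 in mouse 3 in 85% O2 at P14 with antimiR-34a (-2.71), Igf2r in mouse 2 in 85% O2 at P5 with scrambled antimiR (3.65), and Igfbp5 in mouse 4 in 21% O2 at P14 with scrambled antimiR (3.72). That last mouse is also among the 2 arrays at P14 whose brightness stood apart from their group, with a 75th percentile of 9.34 where its group had 10.12 to 10.18. At P5, antimiR-34a mouse 3 in 85% O2 also stood apart, with 9.20 where its group had 9.77 to 9.93.

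The change with oxygen differed between P14 and P5 in scrambled antimiR mice, by limma's test of the difference itself, for 6 members: by 1.16 for Igf1, 0.92 for Igf2r, -1.54 for Igfbp3, -0.78 for Igfbp5, -1.01 for Igfbp6 and -1.28 for Igfbp7, on the log2 scale.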

How the results depend on the processing

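Of 2286 member values under an alternative, 2235 kept their side of the threshold, 29 lost and 22 gained a call, and no called value changed sign; 69 values not called in either setting did. Counts of called members that moved by more than 1.5 times were as follows. Asking also for a 2-fold change left 1 member at P5 in scrambled antimiR mice and 1 in antimiR-34a mice for oxygen, 4 at P14 in antimiR-34a mice, and 3 for age. Quantile normalization gave 4 for oxygen at P5 in scrambled antimiR mice. In antimiR-34a mice at P5, a fit of only the groups compared gave 5, as did leaving out the mice with RNA of another tissue. The latter gave 3 in scrambled antimiR mice at P5, where Igfbp3 was added, and left the counts at P14, for age and for oxygen by age as they were. Leaving out the 2 arrays at P14 that stood apart in brightness removed Igfbp4 for oxygen in scrambled antimiR mice and for age, which left 6 and 7. Leaving out 1 array at a time gave 2 to 4 members for oxygen at P5 in scrambled antimiR mice. With replicate number as a replicate block the counts were the same as without it: 2, 7, 3, 7, 8 and 6 members for oxygen at P5 and P14 in scrambled antimiR, oxygen at P5 and P14 in antimiR-34a mice, age, and oxygen by age, and 0 for all antimiR comparisons. A block for slide could not be fitted for oxygen or age and adds nothing within a slide. For the causes of these changes, the fewer arrays or genes of an alternative apart, the cause was not tested. Other scaling moved the median of all probes for oxygen at P14 by up to 0.17 in scrambled antimiR mice and 0.20 in antimiR-34a mice, and for oxygen by age by 0.12. Quantile normalization and the authors' table made Igf1r a called fall at P14 in antimiR-34a mice (-0.14 and -0.15).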
